A study of Mus musculus with 2 samples.

Results

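The Mir26 family of the mouse comprises 3 microRNA genes, Mir26a-1, Mir26a-2 and Mir26b, which lie inside the phosphatase genes Ctdspl, Ctdsp2 and Ctdsp1. They were taken by symbol from 1973 microRNA genes counted by small RNA sequencing of mouse embryonic midbrain, and all 3 were present in the count tables. The study holds 1 group of 2 biological replicates, with no treatment or second tissue. Replicate 1 was pooled from 120 embryos and replicate 2 from 88 embryos of strain B6NCrl, both sexes mixed, at embryonic day 12.5. The comparisons are therefore between the 3 genes and between the 2 pools, and a p-value between pools covers counting error only.

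MicroRNAs are short RNAs cut from a hairpin precursor, and the strand loaded into an Argonaute protein recognises target messages mainly through its seed, bases 2 to 8. The miR-26 strand from the 5′ arm of the hairpin is found in many tissues and is known to act on messages such as Ezh2, which encodes the histone methyltransferase of the Polycomb complex. The host genes encode small C-terminal domain phosphatases, which work with the repressor REST to keep neuronal genes silent outside neurons. In zebrafish, miR-26b is known to act on the message of its own host gene family during neurogenesis.

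The mature sequences are shown because they decide which reads can be assigned to a single gene. They are RefSeq sequences on GRCm38.p6, written 5′ to 3′ with the seed in capitals, and all 3 genes were matched.
miR-26a-5p (Mir26a-1 and Mir26a-2): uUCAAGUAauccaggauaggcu
miR-26b-5p (Mir26b): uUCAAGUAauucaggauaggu
miR-26a-1-3p (Mir26a-1): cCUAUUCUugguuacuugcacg
miR-26a-2-3p (Mir26a-2): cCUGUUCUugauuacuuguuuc
miR-26b-3p (Mir26b): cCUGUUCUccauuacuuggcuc
The 5′ arms of all 3 genes carry the seed UCAAGUA, and among the 1679 mature names in the table no others have it. Counted from the 5′ end over 21 positions, miR-26b-5p differs from miR-26a-5p by C11U and C21U, both outside the seed. The 3′ arms are less alike. The 3′ arms of Mir26a-1 and Mir26a-2 differ at 6 of 22 positions, and A4G among these lies in the seed, while the 3′ arms of Mir26a-2 and Mir26b differ at 4 positions and share the seed CUGUUCU.

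The hairpins show how far the identity of Mir26a-1 and Mir26a-2 reaches. Capitals mark the 5′ and 3′ mature arms.
Mir26a-1: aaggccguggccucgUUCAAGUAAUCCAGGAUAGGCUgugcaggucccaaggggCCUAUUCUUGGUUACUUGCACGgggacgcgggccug
Mir26a-2: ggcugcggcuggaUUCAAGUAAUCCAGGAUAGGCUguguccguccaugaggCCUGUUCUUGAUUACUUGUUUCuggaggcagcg
Mir26b: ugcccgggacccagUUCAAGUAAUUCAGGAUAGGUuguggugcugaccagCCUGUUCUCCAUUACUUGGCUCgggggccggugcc
Around the 22 bases of miR-26a-5p, the 2 Mir26a hairpins have no further shared base upstream and 3 downstream, so they are identical over a run of 25 bases. A read that lies wholly inside this run matches both genes equally well. Of the 20-base windows in each hairpin, 6 of 71 in Mir26a-1 and 6 of 65 in Mir26a-2 also occur in the other, and all of them start in the 5′ arm. None of the 66 windows of Mir26b occurs in another annotated hairpin. The search covered RefSeq hairpins on either strand and not the rest of the genome.

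**Figure D1:**
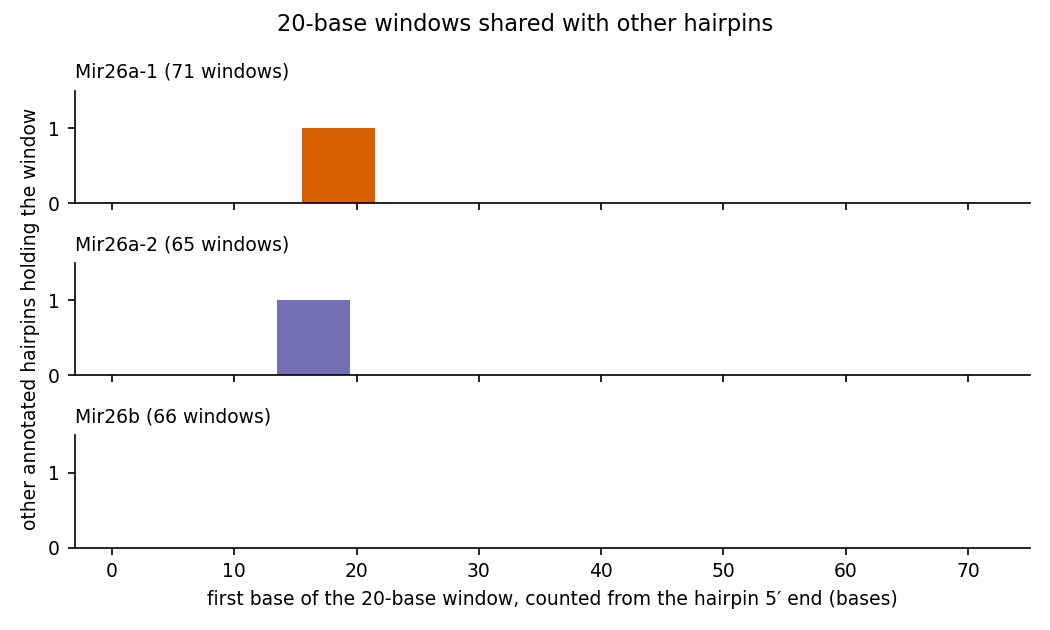
For each Mir26 hairpin, bars give the number of other annotated hairpins (y axis) that hold the 20-base window starting at each base (x axis, counted from the hairpin 5′ end). Mir26a-1 and Mir26a-2 have 6 shared windows each, and Mir26b has 0.

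The predicted folds of the 3 hairpins were alike. The minimum free energy was -49.4 kcal/mol for Mir26a-1, -44.5 kcal/mol for Mir26a-2 and -43.5 kcal/mol for Mir26b. In the predicted structure, 18 of the 22 bases of the 5′ arm of Mir26a-1, 17 of 22 of Mir26a-2 and 17 of 21 of Mir26b paired with the 3′ arm, and 6 of the 7 seed bases were paired in each.

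Each gene lies on its host's strand, in an intron of the host's principal coding transcript. On mm10, Mir26b (ENSMUSG00000065468.1) lies on chromosome 1 from 74394310 to 74394394, in intron 4 of Ctdsp1, which is 564 bases long. Mir26a-1 (ENSMUSG00000065513.1) lies on chromosome 9 from 119031796 to 119031885, in intron 5 of Ctdspl, which is 3283 bases long. Mir26a-2 (ENSMUSG00000065430.1) lies on chromosome 10 from 126995530 to 126995613, in intron 5 of Ctdsp2, which is 1946 bases long. The intron number differs between hosts, but the place in the coding sequence is nearly the same. The intron is followed by 402 coding bases in Ctdspl, 402 in Ctdsp2 and 405 in Ctdsp1, and in all 3 it falls between codons. The hosts themselves differ in size, from 5.78 kb for Ctdsp1 and 21.3 kb for Ctdsp2 to 117.5 kb for Ctdspl. The last base of the Mir26a-2 hairpin also overlaps by 1 base the first exon of 2 shorter Ctdsp2 transcripts, so that gene is intronic for the long transcript but not for every annotated one. Host messages were not measured in these libraries.

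**Figure D2:**
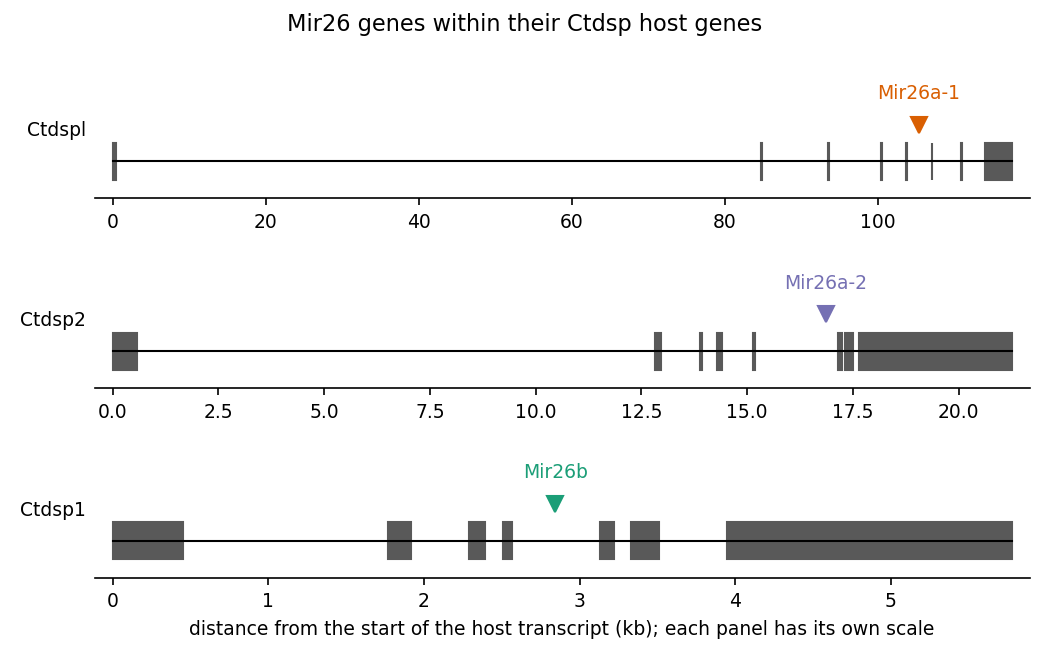
Exons (boxes) of the principal coding transcript of each host gene and the place of the microRNA (triangle), by distance from the transcript start in kb, each panel on its own scale. Mir26b lies in intron 4 of Ctdsp1, and Mir26a-1 and Mir26a-2 in intron 5 of Ctdspl and Ctdsp2.

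Replicate 1 held 4629302 reads on the own strand of a microRNA gene and replicate 2 held 2805487. Levels are counts per 1000000 of these reads (CPM), and 3 reads corresponded to 0.648 CPM and 1.07 CPM. Multimapping reads, which fit more than 1 place in the genome, made up 33.4% of either library and count for no gene. The levels of brain microRNAs were read as a check of the tissue. Mir137, known from neural tissue, stood at 4225 CPM in replicate 1 and 3564 CPM in replicate 2. Mir9 and Mir124 copies, the usual neural markers, had reads at all 5 genes found by symbol. These are assigned reads and leave out any that match several copies, so they need not be the levels of miR-9 and miR-124. The highest of these genes was Mir9-3, at 316 and 246 CPM in replicates 1 and 2. The lowest by mean was Mir124a-1, at 6.05 CPM from 28 reads and 1.07 CPM from 3 reads, which is the floor in replicate 2. In replicate 1, Mir9-2 at 4.75 CPM and Mir124a-3 at 5.40 CPM stood lower. Markers of other tissues were also read. Endothelial Mir126a stood at 23434 and 26243 CPM, erythroid Mir144 at 25.7 and 29.6 CPM and muscle Mir206 at 22.2 and 22.8 CPM, while muscle Mir1a-1 and Mir133a-1 had 0 reads in both libraries. The pools differed in liver Mir122, at 8.64 CPM in replicate 1 and 69.5 CPM in replicate 2, and in erythroid Mir451a, at 373 and 212 CPM (both called by the Fisher's exact test described further on). The part of such differences between the pools in the values of the Mir26 genes was not tested.

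Mir26b accounted for nearly all reads assigned to the family. It had 103468 reads in replicate 1 and 69308 in replicate 2, which is 22351 CPM (95% Wilson interval 22216 to 22486) and 24704 CPM (24523 to 24887). The mean was 23528 ± 1664 CPM (SD, n = 2), or 2.35% ± 0.17 of assigned reads, and the gene ranked 11 in replicate 1 and 10 in replicate 2. In bulk tissue, fewer cells of a type and less RNA per cell cannot be told apart, so this level describes the pooled midbrain and no cell type.

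Mir26a-2 had 160 reads in replicate 1 and 94 in replicate 2. Its level was 34.6 CPM (29.6 to 40.3) and 33.5 CPM (27.4 to 41.0), with a mean of 34.0 ± 0.75 CPM (SD, n = 2) and rank 272 of 1973. The 2 libraries lay within each other's counting intervals.

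Mir26a-1 was the lowest of the 3, with 26 reads in replicate 1 and 9 in replicate 2. Its level was 5.62 CPM (3.83 to 8.23) and 3.21 CPM (1.69 to 6.10), with a mean of 4.41 ± 1.70 CPM (SD, n = 2) and rank 361. Both values lay above the 3-read floor. In replicate 2 the gene missed the minimum of 10 reads in both libraries that 380 genes met, so 2 of the 3 members passed this filter.

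**Figure D3:**
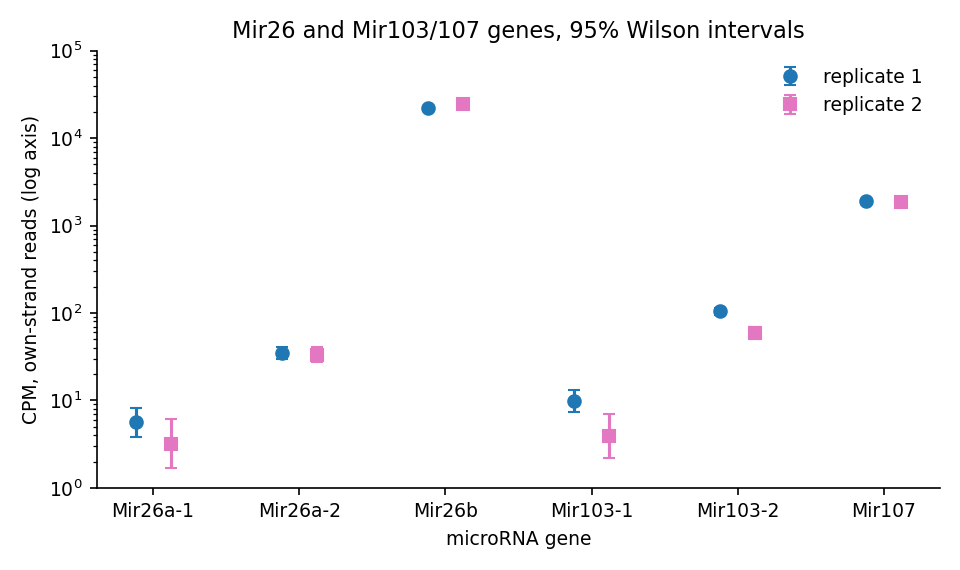
CPM of own-strand reads on a log axis for the 3 Mir26 genes and, for comparison, the 3 Mir103 and Mir107 genes, with replicate 1 as circles, replicate 2 as squares and bars for 95% Wilson intervals. Mir26b stands at 22351 and 24704 CPM and both Mir26a genes at 34.6 CPM or lower, and Mir107 stands above Mir103-1 and Mir103-2.

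Among reads assigned to the 3 genes, the share of Mir26b was 99.82% in replicate 1 (99.79 to 99.84%, 95% Wilson) and 99.85% in replicate 2 (99.82 to 99.88%). Both Mir26a genes together had 186 of 103654 family reads in replicate 1 and 103 of 69411 in replicate 2. Mir26b was therefore 556-fold above their sum in replicate 1 and 673-fold above it in replicate 2. The order Mir26b, Mir26a-2, Mir26a-1 was the same in both libraries and lay outside the counting intervals in each. Within the Mir26a pair, Mir26a-2 took 86.0% (80.3 to 90.3%) of the reads in replicate 1 and 91.3% (84.2 to 95.3%) in replicate 2, and these intervals overlap. The hairpins differ little in length, and per kilobase of hairpin the order of the mean levels was the same, at 276795 CPM for Mir26b, 405 CPM for Mir26a-2 and 49.0 CPM for Mir26a-1.

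The low counts of Mir26a-1 and Mir26a-2 are not the level of miR-26a-5p, whose 22 bases lie wholly within the 25-base run shared by both hairpins. Reads that match both genes equally stand in the multimapping row with those of every other repeated sequence, which held 3589504 reads in replicate 1 and 2242911 in replicate 2. How many of them came from miR-26a-5p cannot be read from gene counts. The tables do not separate the arms, so whether the 186 and 103 assigned Mir26a reads came from the 3′ arms or from longer or altered 5′ reads was not tested. For the same reason the 556-fold and 673-fold ratios compare assigned reads and not the abundance of miR-26b and miR-26a.

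The Mir103 and Mir107 genes offer the closest parallel, since Mir103-1, Mir103-2 and Mir107 also lie in introns of paralogous hosts, the pantothenate kinase genes Pank3, Pank2 and Pank1, and also share a seed. Their main arms are shown to mark the single difference.
miR-103-3p (Mir103-1 and Mir103-2): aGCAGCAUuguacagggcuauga
miR-107-3p (Mir107): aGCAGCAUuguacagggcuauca
Here the mature arm made from both copies differs from the single-copy arm by G22C, counted from the 5′ end. Mir107 had 1918 CPM in replicate 1 and 1860 CPM in replicate 2, Mir103-2 had 105.0 and 59.2 CPM, and Mir103-1 had 9.94 and 3.92 CPM. Mir107 took 94.3% of the reads of its family in replicate 1 (93.9 to 94.8%) and 96.7% in replicate 2 (96.2 to 97.2%). The share of the single-copy gene was thus higher in the Mir26 family in each library, with intervals that do not overlap. The families are also unlike in their shared windows, and the part of this in the shares was not tested. Of the 20-base windows, 12 of 67 in Mir103-1 and 16 of 67 in Mir103-2 also occur in another hairpin of the family. For the Mir26a pair these were 6 of 71 in Mir26a-1 and 6 of 65 in Mir26a-2. In Mir107, 9 of the 68 windows of 20 bases also occur in Mir103-1 or Mir103-2, against none in Mir26b. Those that start at bases 49 to 53 lie on the side of the 3′ arm, and those that start at bases 7 to 10 on the 5′ side. Reads of the 3′ arm of Mir107 that end before the differing base therefore also match several places. In both families the gene without a mature copy elsewhere was the one with the most assigned reads.

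In the other pairs in paralogous hosts, both copies give an identical main arm and there is no single-copy member. Mir128-1, in R3hdm1, averaged 222 CPM and Mir128-2, in Arpp21, 96.3 CPM. Mir218-1, in the axon guidance gene Slit2, averaged 22.4 CPM and Mir218-2, in Slit3, 59.9 CPM. Each of these 4 genes had a mean between those of Mir26a-1 and Mir26b, and Mir218-1 alone stood below Mir26a-2.

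**Figure D4:**
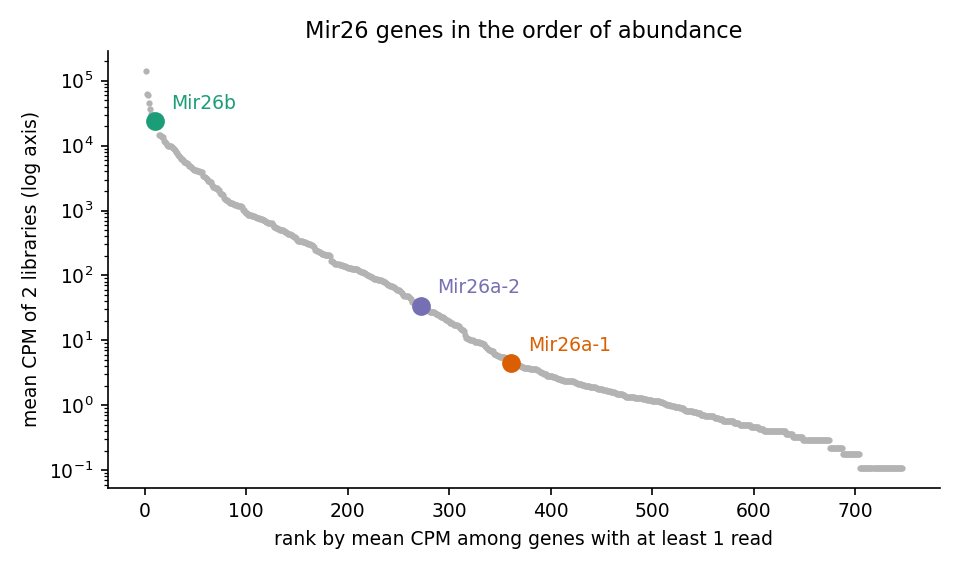
Mean CPM of the 2 libraries on a log axis (y axis) against rank by mean CPM (x axis) for the 746 genes with at least 1 read (grey), with the Mir26 genes in colour. Mir26b is at rank 10, Mir26a-2 at rank 272 and Mir26a-1 at rank 361.

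The genes directly above and below each Mir26 gene in the order of mean CPM are close to it by selection. Their gaps were smaller than the larger SD of each pair, which says nothing further about likeness. Mir92b, directly above Mir26b, averaged 23684 ± 5941 CPM, and Mir20a of the Mir17hg cluster, directly below, averaged 22080 ± 4385 CPM (SD, n = 2). Mir92b stood below Mir26b in replicate 1 and above it in replicate 2, and Mir20a did the opposite. Mir26a-2 lay between Mir7689 at 34.2 ± 3.53 CPM and the epithelial microRNA Mir200a at 33.1 ± 9.59 CPM. Mir26a-1 lay next to Mir3086 at 4.48 ± 1.30 CPM and tied with Mir7226, which also had 26 and 9 reads.

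To compare the pools, each gene's reads were set against the remaining assigned reads by Fisher's exact test (two-sided), with Benjamini-Hochberg adjustment over the 380 genes that had at least 10 reads in both. By this test 206 genes differed between the libraries (54.2%), 103 higher in replicate 2 (27.1%) and 103 lower (27.1%). The even split depends on the processing. The share of called genes that were higher in replicate 2 ran from 42.0% with all reads as the denominator to 50.5% with either strand. Of the 2 Mir26 genes tested, Mir26b was called and Mir26a-2 was not. Mir26b was 1.11-fold higher in replicate 2, with a log2 ratio of 0.14 ± 0.01 (counting SE) and an adjusted p of 5.99e-93 by Fisher's exact test. In size the difference was small beside those of other genes: 262 of the 380 (68.9%) had a larger log2 ratio in absolute value, and the median absolute log2 ratio was 0.24. Mir26a-2 had a log2 ratio of -0.04 ± 0.19 (Fisher's exact test, adjusted p = 0.90), and its 95% counting interval ran from 0.75-fold to 1.25-fold, so a difference within these bounds could not be told from none at this depth. Mir26a-1 had a log2 ratio of -0.81 ± 0.56 and was below the count minimum. Its counting interval ran from 0.27-fold to 1.22-fold. No difference between the pools was detected with its 26 and 9 reads, and changes within that interval could not be told from none.

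**Figure D5:**
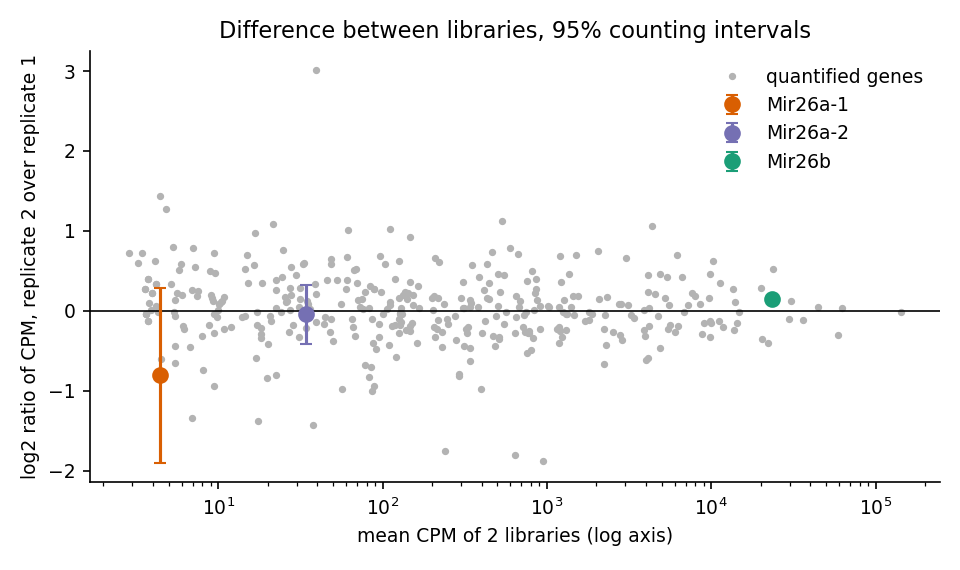
Log2 ratio of CPM, replicate 2 over replicate 1 (y axis), against mean CPM on a log axis (x axis), for the 380 quantified genes (grey) and the Mir26 genes with 95% counting intervals. Mir26b lies at 0.14 with an interval narrower than its symbol, and the intervals of Mir26a-2 and Mir26a-1 include 0.

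The quantified genes most like each member were those with the nearest log2 ratio among genes within 2-fold of its mean CPM. For Mir26b, out of 15 such genes, they were Mir99b (log2 ratio 0.13), endothelial Mir126a (0.16) and Mir149 (0.11). For Mir26a-2, out of 63, they were Mir3078 (-0.06), Mir582 (-0.02) and Mir7655 (-0.01). This likeness rests on 2 libraries.

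The microRNAs tied to REST, the partner of the host phosphatases, were read as the pathway list: Mir9, Mir124, Mir132, Mir212 and Mir153 genes. Of 9 listed genes, 8 were found by symbol and 6 were quantified, of which replicate 2 was called higher for 1 and lower for 2, with no call for the other 3. These 3 calls among 6 genes are near the 54.2% called over all 380. The list's median log2 ratio was -0.08, against 0.04 over all 380 genes. Mir153 was the most abundant at 3399 CPM (log2 ratio -0.10 ± 0.02, called lower) and Mir9-3, a copy of the neurogenic miR-9, had 316 CPM in replicate 1 and 246 CPM in replicate 2 (-0.36 ± 0.07, called lower). Mir132 was called higher (0.18 ± 0.08, Fisher's exact test, adjusted p = 0.032), from 192 to 218 CPM. Mir26b had more assigned reads than every listed gene found, in each library. Both Mir9 genes found carry mature arms that occur at other Mir9 genes, so their assigned reads, like those of Mir26a-1 and Mir26a-2, omit reads that matched several places. The symbols of the Mir124 genes had no match among the RefSeq sequences, so the same limit was not checked for them. In the list of paralogous hosts, 7 of 7 genes were quantified, of which 2 were called higher (Mir128-1 and Mir128-2), 2 lower (Mir103-1 and Mir103-2) and 3 not called, also near the 54.2% called over all genes and the 27.1% in each direction. The median log2 ratio was 0.27, against 0.04 over all 380 genes. Mir107 was among those not called (-0.04 ± 0.03), while its multi-copy relative Mir103-2 was called lower (-0.83 ± 0.13).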

How the data were processed

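The authors deposited raw counts, whole numbers of reads per microRNA gene, for 2 libraries. Per the deposited read-me files these derive from alignments to mm10 with annotation M4. The aligner and its version were not given in the sources used here. Own-strand counts were used. Rows that name no gene (unmapped, multimapping, unassigned) took 56.9% and 58.2% of reads and stayed out of totals. Of 1973 identifiers, 1894 had a symbol in GENCODE M21 (GRCm38, the assembly of mm10), which also gave positions and exons. Sequences came from RefSeq tables on GRCm38.p6. Folds used ViennaRNA 2.7.2. Tests used Python 3.11.15 with scipy 1.17.1, with alternatives scaled by edgeR 4.0.16 and DESeq2 1.42.0. They were also run on simulated counts with counting error only. That simulation held no variation between pools, so it cannot show how the test behaves with such variation.

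Named genes were the 3 members, the fixed lists, rank neighbours and the 3 nearest ratios. Members and lists were chosen with earlier results of these data known. Wilson intervals (95%) and the 3-read floor cover counting error within a library only and leave out variation between pools. They make no allowance for PCR copies, which are not independent molecules.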

Additional observations from a re-analysis of the deposited data

Results flagged for a closer look

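Reads outside the gene counts made up a large part of each library. Those aligning to several places made up 33.4% of all reads in replicate 1 and 33.4% in replicate 2, and any read of miR-26a-5p that lies wholly within the run shared by Mir26a-1 and Mir26a-2 matches both genes equally. Their division among microRNAs was not analysed here. On the strand opposite to Mir26a-1, Mir26a-2 and Mir26b there were 0 reads in both libraries.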

How the results depend on the processing

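With all reads of a library as the denominator, the mean level was 9974 CPM for Mir26b, 14.4 CPM for Mir26a-2 and 1.88 CPM for Mir26a-1, because this divides by more reads. Per kilobase of hairpin, the levels were 276795, 405 and 49.0 CPM. With reads of either strand counted, Mir26a-2 stood at 33.2 CPM, and the other levels moved by less than the SD. Leaving out a replicate gave 22351 to 24704 CPM for Mir26b, 33.5 to 34.6 CPM for Mir26a-2, 3.21 to 5.62 CPM for Mir26a-1 and a Mir26b share of 99.82 to 99.85%. The log2 ratio of Mir26b ran from 0.10 to 0.14 over either strand, all reads, TMM, DESeq2 and both lower count minimums, and was called in each. Mir26a-2 was called in none of them. With at least 1 read in both libraries or in either, Mir26a-1 could be tested and had an adjusted p of 0.37 and 0.40 by Fisher's exact test. The number of genes that differed ran from 199 to 214, but the number tested changed too. It was 206 of 380 in the main test and 214 of 391 with either strand. With at least 1 read in both libraries it was 203 of 643, and with at least 1 read in either it was 199 of 746. The share of tested genes called was therefore lower with the lower count minimums. No paired analysis was possible because both libraries belong to 1 group. Low assigned counts limit the comparison of Mir26a-1 and Mir26a-2 between the pools. Reads that lie wholly within the run shared by both genes cannot be assigned to either at any depth. Replication is limited to 2 pools.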
